A study of Arabidopsis thaliana with 4 samples.

Results

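Genes for enzymes and proteins that loosen or modify the plant cell wall were followed in Arabidopsis thaliana seedlings kept in darkness or in light. A probe set (the group of array probes that reports 1 transcript) was taken as a member when the platform's probe-to-gene table gave it exactly 1 gene, with a symbol starting with EXPA, EXPB, EXLA, EXLB, XTH, GH9 or TBL. This rule, which uses no measured value, found 64 probe sets for 64 genes among 22746 probe sets: 10 EXPA, 4 EXPB, 4 EXLA or EXLB, 9 XTH, 15 GH9 and 22 TBL. RefSeq lists 126 Arabidopsis genes with such symbols, so about as many family genes were not analysed here as were.

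The series, titled as a study of dark-induced expression in sfr6, has 4 groups with 1 Affymetrix ATH1 array each: sfr6 in dark, sfr6 in light, wild type in dark and wild type in light. The sfr6 plants carry a mutation made with EMS, a chemical mutagen, in the Col-0 background, and the wild type is Col-0 of stock N1092. After 7 days on agar all plants spent 24 h in a cabinet at 240 microEinsteins in days of 16 h light and 8 h dark. Then those of the dark groups were wrapped in foil for 3 h while those of the light groups stayed uncovered for 3 h. The labels call the tissue cell culture. Of 20 green-tissue marker genes 5 had a named probe set, all over the floor on every array, with summed signals of 10192 and 10154 in sfr6 in dark and light and of 11412 and 11637 in wild type. They included LHCB4.1, an antenna protein gene, and RCA, the Rubisco activase gene, which read between 2747 and 3695. PORB, a chlorophyll synthesis gene of the same list, read 594 in dark and 195 in light in sfr6 and 688 and 276 in wild type, 3.04-fold and 2.49-fold higher in dark. Of 12 root markers PYK10, a beta-glucosidase gene, was the one measured, at between 1823 and 3004. With 1 array a group, no single comparison of arrays has a replicate check.

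A growing plant cell is held by a wall of cellulose fibrils set in xyloglucan, xylan, mannan and pectin, and it enlarges when that network yields to turgor. Expansins loosen the contacts between cellulose and matrix without cutting either polymer; EXPA genes encode alpha-expansins and EXPB genes beta-expansins, while EXLA and EXLB proteins resemble them and have no proven loosening activity. XTH enzymes cut xyloglucan chains and rejoin the ends, or hydrolyse them. GH9 enzymes are endoglucanases that cut beta-glucans, in forms anchored in the membrane (GH9A), secreted (GH9B) or secreted with a carbohydrate-binding module (GH9C). TBL proteins work in the Golgi, where those with a known role add acetyl groups to wall polymers.

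The values are MAS5 signals on a linear scale, which the authors had brought to the same trimmed mean on every array. Signals under a floor of 22.11, the 40th percentile of all signals, were set to the floor before log2 was taken, and a fold whose dimmer side lay under the floor is given as a lower bound. In the text "rose" and "fell" are kept for members whose average dark effect over both genotypes passed limma's moderated test at an adjusted p under 0.05. The test used an additive model of genotype and darkness, and p-values were adjusted by Benjamini-Hochberg across the 15121 probe sets fitted. Its 1 residual degree of freedom comes from the difference between the dark responses of the genotypes. The moderated test adds a variance shared across probe sets, with 5.15 prior degrees of freedom. Standard errors and p-values rest largely on that shared variance, and they measure the spread between these 4 arrays only. In whole seedlings fewer cells of a type and less RNA per cell cannot be told apart. The control for large-subunit ribosomal RNA differed between the arrays: it read 1321 and 120 in sfr6 in dark and light, and 364 and 122 in wild type in dark and light. Its part in the results was not tested. The share of probe sets at or over the floor was between 58.2% and 61.6% on the 4 arrays.

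Of the 64 members, 41 reached the floor on some array and entered the test, and 20 were over it on all 4 arrays. The other 23 stayed between 0.488 and 20.8 on every array. They were 10 of 15 GH9 genes, 5 of 22 TBL, 3 of 9 XTH, 2 of 10 EXPA, 2 of 4 EXPB and EXLA3. Among the 41 tested members 17 fell and 3 rose in the dark, and 21 did not pass. Over all 15121 probe sets tested, 17.8% fell and 15.4% rose, 33.1% in all. A member that was over the floor in light alone could only be lower in the dark, so these counts hold the filter's choice as well. For members over the floor on all 4 arrays, 8 of 20 fell and 3 rose. A fit limited to the 12147 probe sets over the floor on all 4 arrays called 2411 of them as fallen and 2343 as risen. In that fit 10 of the 20 members fell and 3 rose. In 11 of these 20 both dark arrays lay below both light arrays, and in 3 both lay above, against 31.4% and 32.0% of 12147 probe sets. The median average dark effect (log2, dark minus light) was -0.51 over the 41 members and -0.05 over all probe sets tested. The members' median depended on the floor and filter: a floor at the 20th percentile gave -0.31, the 60th gave -0.17, and a pseudocount of 16 with no filter gave -0.18.

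**Figure D1:**
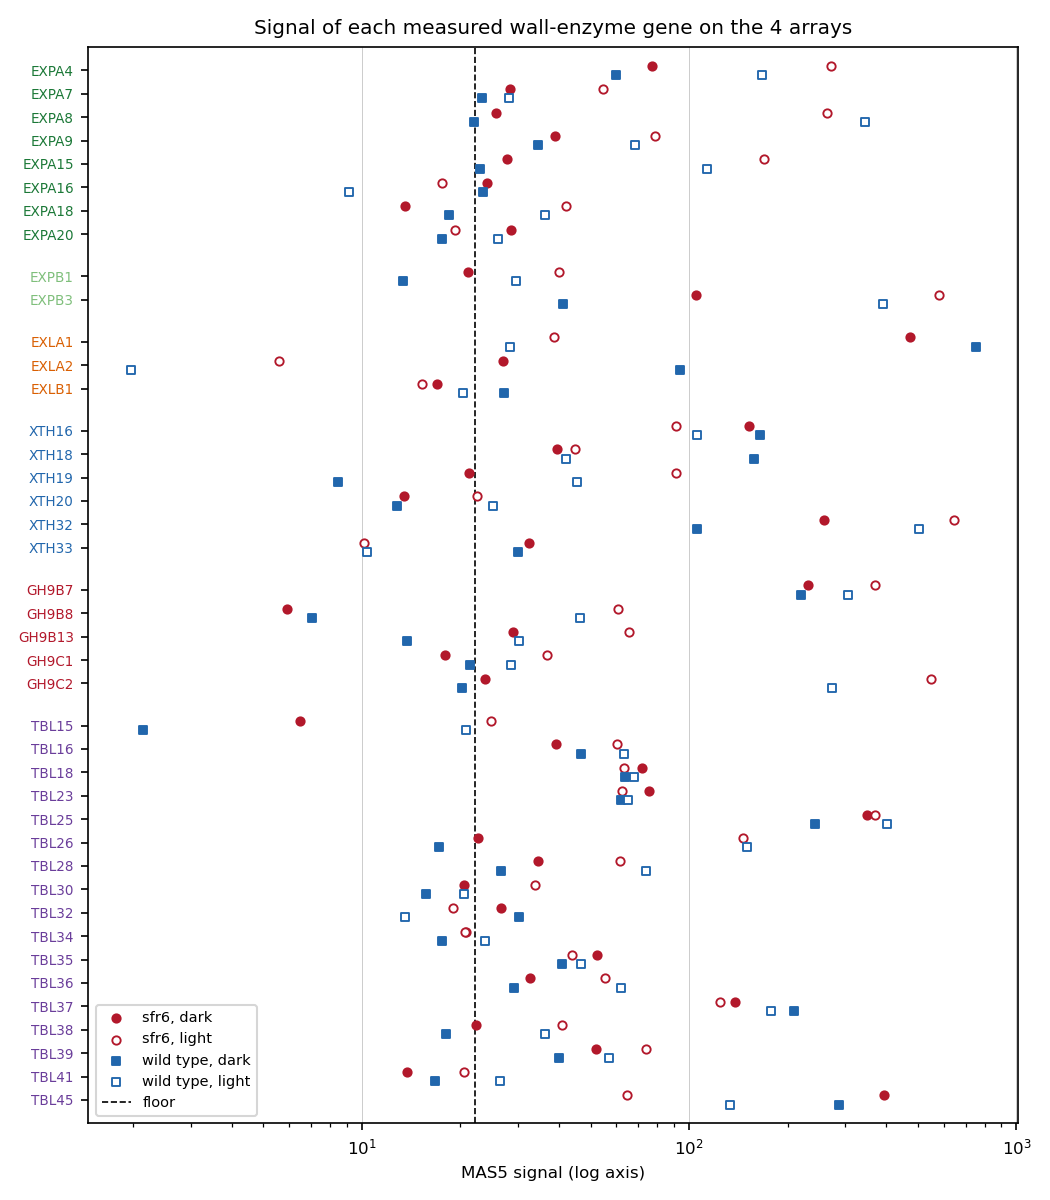
MAS5 signal (x axis, log scale) of the 41 wall-enzyme genes that reached the floor on some array, a row for each gene, with families set apart and coloured by name. Circles stand for sfr6 and squares for wild type, filled for dark and open for light, and the dashed line is the floor of 22.11; EXPA8, EXPB3, GH9C2 and TBL26 have their filled symbols far left of the open ones, and EXLA1 and TBL45 far right.

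Alpha-expansin transcripts fell in the dark in 5 of 8 tested EXPA genes, and 0 rose, against 17.8% and 15.4% of all probe sets. Of these 8 genes, 4 were over the floor on all 4 arrays. EXPA8 read 25.8 in dark and 263 in light in sfr6, and 22.06 in dark and 345 in light in wild type. Both dark signals lay close to the floor, and the fall was 10.2-fold in sfr6 and at least 15.6-fold in wild type, with an average log2 effect of -3.66 ± 0.20 (SE, limma adjusted p 0.00027). EXPA15 read 27.7 in dark and 169 in light in sfr6, against 23.0 in dark and 113 in light in wild type. Its fall was 6.12-fold in sfr6 and 4.93-fold in wild type, an average effect of -2.46 ± 0.18 (adjusted p 0.00054). EXPA4 kept a signal well over the floor in the dark, at 77.1 against 271 in light in sfr6 and at 59.7 against 167 in light in wild type, and fell by 1.65 ± 0.16 on the log2 scale. EXPA9 fell about equally in both genotypes, to 38.9 in dark against 78.6 in light in sfr6 and to 34.6 against 68.2 in wild type, a call that was lost with the floor at the 60th percentile.

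EXPA7 and EXPA18 are alpha-expansin genes of root hairs. EXPA18 read 13.5 in dark and 42.2 in light in sfr6, and 18.4 in dark and 36.2 in light in wild type, and it fell. With both dark signals under the floor, it could only be lower in the dark. EXPA7 did not pass: its signals were 28.4 in dark and 54.6 in light in sfr6, and 23.3 and 28.1 in wild type, an average effect of -0.61 ± 0.21 (adjusted p 0.074). PYK10, the 1 measured gene of the separate root marker list, was lower in the dark too, by 0.51 on the log2 scale. A link between it and these values was not tested. EXPA16 and EXPA20 did not pass either, with all 4 signals between 9.11 and 28.6. EXPA21 and EXPA24 were under the floor on every array.

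Beta-expansin signals came from EXPB1 and EXPB3, and both fell, against 17.8% of all probe sets tested. EXPB3 read 105 in dark and 581 in light in sfr6, and 41.1 in dark and 390 in light in wild type. All 4 signals were over the floor, and the fall of 5.55-fold in sfr6 and 9.49-fold in wild type gave an average log2 effect of -2.86 ± 0.20 (adjusted p 0.00045). EXPB1 was dimmer, at 21.2 in dark and 39.99 in light in sfr6 and at 13.4 and 29.5 in wild type. It was over the floor in light alone and could only be lower in the dark. Its call was near the threshold (adjusted p 0.038) and was lost under quantile normalization, under spike-in centring and with a pseudocount of 16 and no filter. EXPB2 and the pollen-associated EXPB5 were under the floor throughout.

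Among 3 tested expansin-like genes EXLA1 rose and 0 fell, against 15.4% and 17.8% of all probe sets tested. EXLA2 and EXLB1 were over the floor in dark alone and could only be higher there. EXLA1 read 473 in dark and 38.8 in light in sfr6, against 751 in dark and 28.4 in light in wild type. It rose 12.2-fold in sfr6 and 26.5-fold in wild type, an average log2 effect of 4.17 ± 0.26 (adjusted p 0.00034), and its sign was opposite to that of every EXPA and EXPB gene that passed. EXLA2 was far under the floor in light, at 5.59 in sfr6 and 1.97 in wild type, and reached 26.9 in sfr6 in dark and 94.0 in wild type in dark. Its average effect of 1.19 ± 0.40 did not pass (adjusted p 0.066). It passed with the floor at the 20th percentile, with spike-in centring and with a pseudocount in place of the floor. EXLB1 passed the floor on a single array, at 27.2 in wild type in dark, and EXLA3 was under it on every array, with its highest signal, 20.8, also in wild type in dark.

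The xyloglucan enzymes moved in both directions. XTH32, of the XTH clade that holds the known xyloglucan hydrolases, read 258 in dark and 644 in light in sfr6, and 106 in dark and 503 in light in wild type. It fell 2.50-fold in sfr6 and 4.75-fold in wild type, an average effect of -1.78 ± 0.22 (adjusted p 0.0023). XTH19, which is expressed in roots, read 21.3 in dark and 91.3 in light in sfr6, and 8.44 in dark and 45.6 in light in wild type. It fell at least 4.13-fold in sfr6 and at least 2.06-fold in wild type (average effect -1.54 ± 0.26), and the call was lost with the floor at the 60th percentile, a signal of 58.1. XTH16 rose, to 152 in dark against 91.0 in light in sfr6 and to 164 against 105 in wild type, an average effect of 0.69 ± 0.14 (adjusted p 0.014).

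XTH18, the closest relative of XTH19 in this set, was high on a single array. It read 39.4 in dark and 44.7 in light in sfr6, and 158 in dark and 42.2 in light in wild type, and the average effect of 0.86 ± 0.46 did not pass (adjusted p 0.20). XTH33, an enzyme bound to the plasma membrane, lay at 32.4 in dark and 10.1 in light in sfr6 and at 30.0 and 10.4 in wild type. The pattern was alike in both genotypes, but with the light signals under the floor the average effect was 0.49 ± 0.15 (adjusted p 0.053). It passed under the 20th-percentile floor, under both pseudocounts, under quantile normalization and without the intensity trend. XTH20 was at 25.2 or less on every array, and XTH21, XTH26 and XTH29 were under the floor throughout.

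Endoglucanase transcripts fell in 4 of 5 tested GH9 genes, and 0 rose, against 17.8% and 15.4% of all probe sets tested. GH9B8 and GH9C1 were over the floor in light alone and could only be lower in the dark. GH9B7 alone was over the floor on all 4 arrays. GH9C2 read 23.8 in dark and 550 in light in sfr6, against 20.2 in dark and 273 in light in wild type. Both dark signals were close to the floor, and the fall of 23.1-fold in sfr6 and at least 12.3-fold in wild type gave the lowest average log2 effect among the members, -4.08 ± 0.24 (adjusted p 0.00029). GH9B8 was also under the floor in the dark, at 5.91 in dark and 60.7 in light in sfr6 and at 7.06 and 46.5 in wild type. GH9B7 stayed high: its signals were 230 in dark and 371 in light in sfr6, and 220 and 307 in wild type, an average effect of -0.58 ± 0.12 (adjusted p 0.014).

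GH9B13 read 29.0 in dark and 65.3 in light in sfr6, and 13.8 in dark and 30.1 in light in wild type, and fell by 0.81 ± 0.22 on the log2 scale (adjusted p 0.035). The calls of GH9B8 and GH9B13 were lost with the floor at the 60th percentile, and that of GH9B13 with quantile normalization too. GH9C1, a root-hair endoglucanase gene, was at 17.9 in dark and 36.7 in light in sfr6 and at 21.4 and 28.6 in wild type, just short of the threshold (adjusted p 0.051). None of the other 10 GH9 genes, among them GH9A3 and GH9A4 of the membrane-anchored class, reached the floor on any array. GH9B18 came closest, at 20.8 in sfr6 in dark.

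Among the acetylation genes 4 of 17 tested TBL members fell and TBL45 alone rose, against 17.8% and 15.4% of all probe sets tested. TBL26, a mannan acetyltransferase gene, read 22.6 in dark and 146 in light in sfr6, and 17.3 in dark and 150 in light in wild type. The fall of 6.46-fold in sfr6 and at least 6.80-fold in wild type gave an average effect of -2.73 ± 0.17 (adjusted p 0.00035). The other measured mannan acetyltransferase genes did not pass. TBL25 was at 349 in dark and 371 in light in sfr6 and at 243 and 403 in wild type, and TBL23 lay between 61.9 and 75.5 on all 4 arrays.

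TBL28, a xylan acetyltransferase gene, read 34.5 in dark and 61.6 in light in sfr6, and 26.7 in dark and 73.9 in light in wild type, and fell by 1.15 ± 0.22 on the log2 scale (adjusted p 0.010). TBL36 fell by 0.92 ± 0.19, with signals of 32.7 in dark and 55.4 in light in sfr6 and of 29.2 and 61.8 in wild type. TBL38 fell by 0.79 ± 0.16, at 22.4 in dark and 40.9 in light in sfr6 and at 18.1 and 36.2 in wild type. The calls of TBL28 and TBL36 did not hold with the floor at the 60th percentile, nor that of TBL38 with a pseudocount of 16 and no filter. TBL45 read 394 in dark and 64.8 in light in sfr6, against 286 in dark and 133 in light in wild type. Its rise of 6.08-fold in sfr6 and 2.16-fold in wild type gave an average effect of 1.86 ± 0.33 (adjusted p 0.0084).

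The remaining TBL genes had average effects between -0.53 and 0.36 on the floored log2 scale, and none passed. TBL15 lay mostly under the floor, at 6.46 in dark and 24.9 in light in sfr6 and at 2.15 and 20.9 in wild type. Its floored effect was -0.085, but it passed as lower in the dark with a 20th-percentile floor and with each pseudocount in place of the floor. They included the xylan acetyltransferase genes TBL30, TBL32, TBL34 and TBL35. TBL35 was over the floor on all arrays, at 52.1 in dark and 43.9 in light in sfr6 and at 40.8 and 46.7 in wild type, so its 2 genotypes differed in direction. TBL16 and TBL39 were lower in dark in both genotypes, by between 1.35-fold and 1.53-fold, with adjusted p-values of 0.069 and 0.072. Both passed when probe sets had to be over the floor on all 4 arrays. TBL32 was reported by the single member probe set of a type that can match several transcripts, and its signals, between 13.5 and 30.3, are uncertain for that reason.

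**Figure D2:**
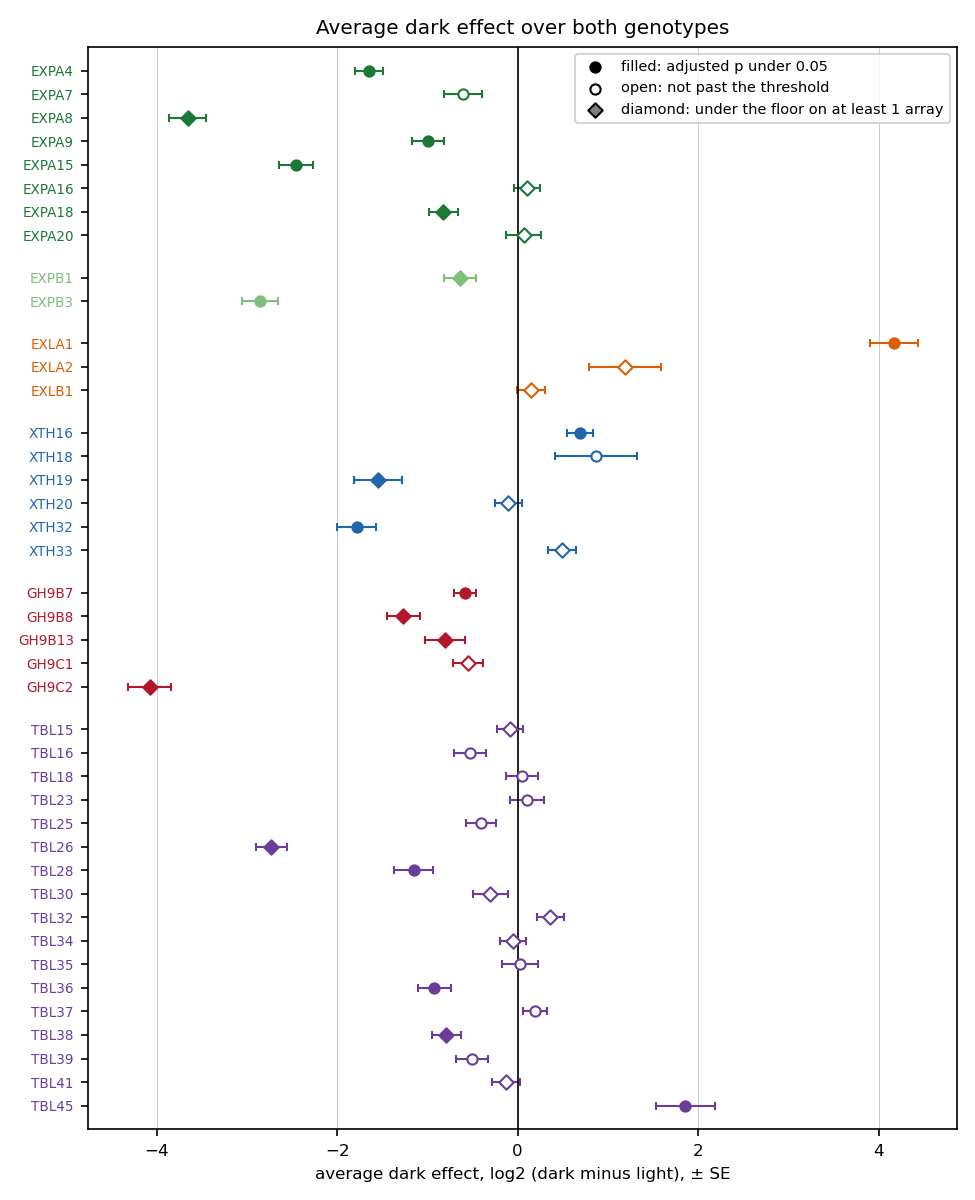
Average dark effect over both genotypes (x axis, log2, dark minus light) with its standard error as a bar, for the 41 tested wall-enzyme genes. Filled symbols passed the adjusted p threshold of 0.05, open ones did not, and diamonds mark genes under the floor on at least 1 array; every EXPA, EXPB and GH9 gene that passed lies left of 0, down to -4.08 for GH9C2, while EXLA1, XTH16 and TBL45 lie right of 0.

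The dark response was then set side by side for the genotypes. In sfr6, 2 members had dark signals 2-fold or more above light and 11 had them 2-fold or more below, of 38 that were over the floor on 1 of the arrays compared, against 6.85% and 6.87% of all probe sets. In wild type the counts were 4 higher and 11 lower of 39, against 6.47% and 7.19%. EXLA1 and TBL45 passed 2-fold upward in sfr6 and in wild type alike, and 9 members passed it downward. Those 9 were EXPA4, EXPA8, EXPA15, EXPB3, XTH19, XTH32, GH9B8, GH9C2 and TBL26. All probe sets gave 4.50% and 4.25% for these criteria. XTH19 and GH9B8 were over the floor in light alone and could only be lower in the dark. The wild-type dark signals of EXPA8, GH9C2 and TBL26 also lay under the floor. Of the 20 members over the floor on all 4 arrays, 2 passed upward and 4 downward in both genotypes. The shares above are over all probe sets tested and do not match this subset. The median response of the tested members was -0.61 in sfr6 and -0.37 in wild type, and that of all probe sets -0.03 in both. The order of the genotypes turned with the floor at the 20th percentile (-0.16 in sfr6 and -0.43 in wild type) and with a pseudocount of 16 and no filter (-0.13 in sfr6 and -0.25 in wild type).

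A difference of at least 2-fold between the responses was found for 5 members: 1 of 41 with the higher response in sfr6 and 4 with the lower, against 1.08% and 1.48% of all probe sets. These differences have no residual degree of freedom and were not tested. For XTH18 the dark signal was 1.13-fold below light in sfr6 and 3.75-fold above it in wild type, a response difference (sfr6 minus wild type, log2) of -2.09. EXLA2 was at least 1.22-fold higher in sfr6 and at least 4.25-fold higher in wild type. EXLA1, with its large response in both genotypes, differed by -1.12. TBL45 had the opposite order, with a response difference of 1.5. XTH19 stood at the 2-fold mark, at -1.0. The sign of its response difference turned with the lower alternative floor and with a pseudocount of 1 in place of the floor. Its dark signals, 21.3 in sfr6 and 8.44 in wild type, both lay under the floor. The 3' to 5' signal ratio of the GAPDH control was 1.1 and 1.09 in sfr6 in dark and light, and 1.35 and 1.13 in wild type in dark and light. The same ratio of the actin control was 7.16 and 6.76 in sfr6 in dark and light, and 7.42 and 7.38 in wild type in dark and light. Both ratios were highest on the array with the high XTH18 and EXLA2 signals, for actin by little. Their part in those signals was not tested.

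**Figure D3:**
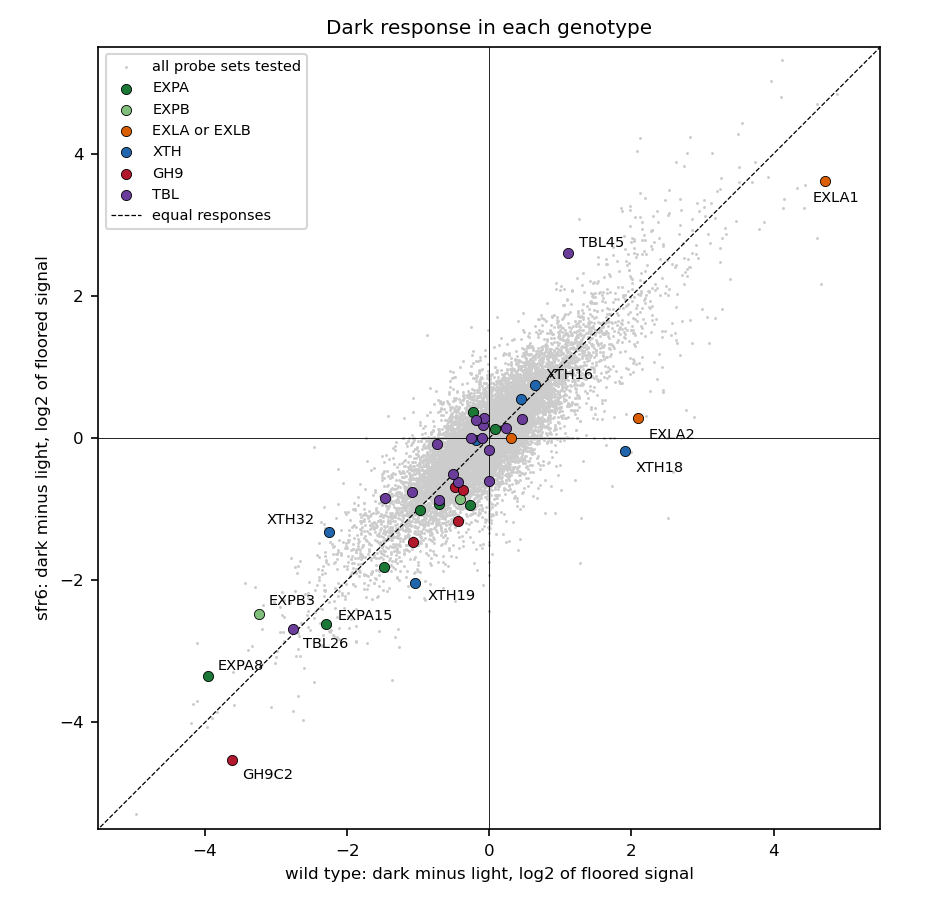
Dark response (log2 of floored signal, dark minus light) in wild type on the x axis and in sfr6 on the y axis, for all 15121 probe sets tested in grey and the 41 wall-enzyme genes in colour by family. The dashed line marks equal responses; most members lie near it, XTH18 and EXLA2 lie far to its right at a response near 2 in wild type and near 0 in sfr6, and TBL45 lies above it.

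Next, sfr6 was compared with wild type under equal lighting. By limma 0 of 41 members passed for the average genotype effect, against 0.417% higher and 0.860% lower over all probe sets. At an unadjusted p under 0.05 were 5 members higher in sfr6 and 1 lower, against 11.3% and 8.47% of all probe sets. The 5 were EXPA4, EXPA7, EXPB3, XTH32 and GH9B13, all of which had lower signals in dark than in light in both genotypes. The lower member was TBL37, at 138 in sfr6 and 209 in wild type in dark and at 124 in sfr6 and 178 in wild type in light.

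EXPB3 was 2.55-fold higher in sfr6 in dark and 1.49-fold higher in light, an average log2 effect of 0.96 ± 0.20 (adjusted p 0.075). It passed under 5 of 12 alternative settings, among them spike-in centring and the filter for signals over the floor on all 4 arrays. XTH32 was 2.43-fold higher in sfr6 in dark and 1.28-fold higher in light, with an adjusted p of 0.11, and passed under 2 of 12. Centring on the spike-in controls moved the median genotype difference of all probe sets up by 0.12 in dark and 0.19 in light, so a difference of that size depends on the scale.

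At least 2-fold in dark were EXPB3 and XTH32, higher in sfr6, and XTH18 and EXLA2, lower in sfr6, against 0.775% and 1.67% of all probe sets. XTH18 was 4.02-fold lower and EXLA2 3.49-fold lower in sfr6 in dark. At least 2-fold in light were GH9B13, GH9C2 and XTH19, higher in sfr6 by 2.17-fold, 2.02-fold and 2.00-fold, and TBL45, lower by 2.05-fold, against 1.01% and 1.72%. No member passed 2-fold the same way in both conditions, as 0.165% of all probe sets did upward and 0.463% downward.

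**Figure D4:**
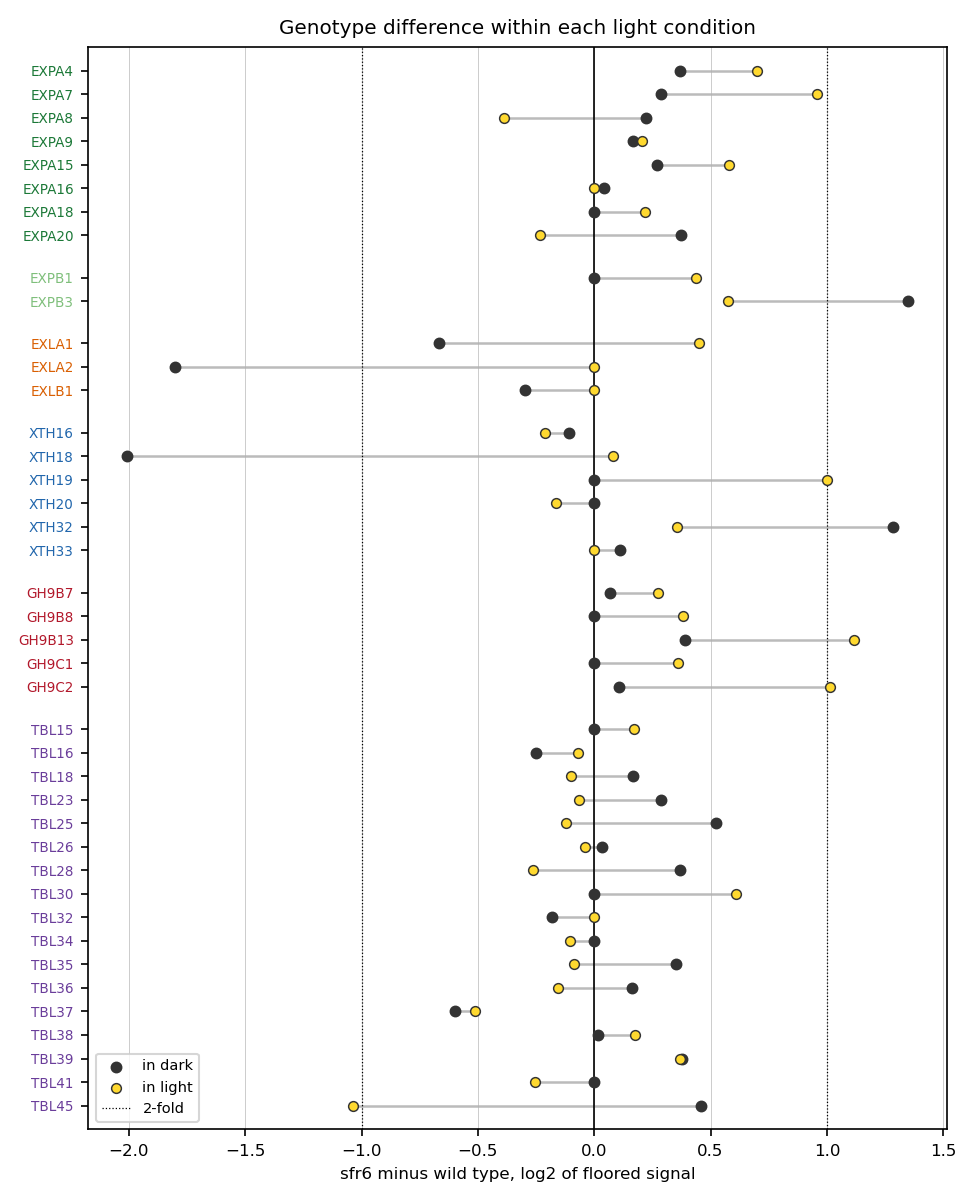
Difference between sfr6 and wild type (x axis, log2 of floored signal, sfr6 minus wild type) for the 41 tested wall-enzyme genes, in dark (black) and in light (yellow), joined by a grey line. Dotted lines mark 2-fold; XTH18 and EXLA2 reach -2.01 and -1.80 in dark, EXPB3 and XTH32 reach 1.35 and 1.28 in dark, and TBL45 reaches -1.04 in light. A point at 0 can also stand for a gene under the floor on both arrays.

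Several members are direct neighbours in the RefSeq gene order. XTH18 and XTH19 lie side by side on chromosome 4, and XTH19 fell while XTH18 was high in wild type in dark alone. EXLA3 and EXLA1 are adjacent on chromosome 3, and EXLA1 rose while EXLA3 stayed under the floor. On chromosome 2, TBL28 fell and its neighbour TBL30 did not pass, with a single signal over the floor, 33.7 in sfr6 in light. The other neighbours, GH9B11 with GH9B12, GH9B16 with GH9B17 and GH9B18, and TBL21 with TBL19, were under the floor on every array. The members lie on all 5 chromosomes, with between 8 and 17 on each.

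Other genes of the wall were taken from lists by symbol. EXGT-A3, which RefSeq also names XTH27 and which the symbol rule therefore missed, read 1136 in dark and 529 in light in sfr6, and 1453 and 877 in wild type. It rose by 0.91 ± 0.12 on the log2 scale. Of 3 tested pectin methylesterase genes 0 passed, against 33.1% of all probe sets tested. Their average effects lay between -0.27 and 0.15. Of 9 tested genes of cellulose and hemicellulose synthesis 4 rose and 1 fell, against 15.4% and 17.8% of all probe sets tested. The risers were CSLA03, a mannan synthase-family gene, at 156 in dark and 39.1 in light in sfr6 and at 191 and 68.1 in wild type, and CSLC04, a xyloglucan backbone synthase gene, with CSLD2 and COB. IRX15-L, a xylan synthesis gene, fell by 0.52 on the log2 scale, near the threshold (limma adjusted p 0.045). It read 19.6 in dark and 33.0 in light in sfr6, and 14.2 and 30.6 in wild type. Over the floor in light alone, it could only be lower in the dark.

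Most of the growth regulators listed had no probe set with 1 named gene: 8 had one and 7 were tested. Of these 7, 4 rose and 2 fell, against 15.4% and 17.8% of all probe sets tested. THE1 and FER, receptor kinase genes that monitor wall integrity, rose: THE1 read 226 in dark and 76.0 in light in sfr6 and 227 and 71.0 in wild type, and FER read 762 and 329 in sfr6 and 811 and 295 in wild type. WES1, an enzyme gene that conjugates auxin, rose by 1.58 and IAA18, an auxin repressor gene, by 0.58 on the log2 scale. BIM1, a brassinosteroid-signalling factor gene, fell by 1.15, and HYH fell as well. For the genotype effect 0 genes of these lists passed. Of 10 tested BGLU beta-glucosidase genes, a family that acts on many substrates, 2 rose and 3 fell, against the same 15.4% and 17.8%.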

How the data were processed

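Total RNA of 4 samples was hybridised, 1 array a group. The deposited values are signal intensity values on a linear scale, made by the authors with MAS5, per the submitters' processing notes, which give no version; no detection calls were used. The mean without the lowest and highest 2% was 100.01 on each array. The 64 control probe sets were left out. Probe sets were named from the platform annotation: 13513 had 1 gene, 503 several and 8730 none; all 64 members matched RefSeq (TAIR10.1, used for names and gene order only). From the intensities, signals were floored at 22.11 and log2 was taken; probe sets over the floor on at least 1 array were fitted additively for genotype and darkness (limma 3.58.1, R 4.3.3, eBayes with intensity trend, 5.15 prior degrees of freedom). The fit was tested on simulated data. Pairwise differences have no test and were counted from 2-fold. Alternatives changed the floor (20th or 60th percentile, or pseudocounts of 1 and 16), the filter, the scaling and eBayes. Described with all signals were the rule's examples, up to 5 called members a family by size of dark effect, those with a 2-fold response difference and the brightest; others by range. Members, lists and tests were chosen with earlier results of these data known. Genes listed as EXPA7, EXPA18, EXPB5, LHCB4.1, RCA and PYK10 served as markers; lists for guard cell, xylem and seed had no named probe set. Symbols whose letters matched a list by chance (PMEAMT) were left out. The number of arrays limits the precision. Figures used matplotlib 3.10.9.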

Additional observations from a re-analysis of the deposited data

Results flagged for a closer look

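With 1 array a group, a gene was singled out where sfr6 and wild type changed in opposite directions in the dark, or where the genotype difference had opposite directions in dark and light. Neither was tested. The first held for 5 of 41 members (17.5% of all probe sets tested) and the second for 12 of 41 (30.0% of all probe sets). The value given is the dark response in sfr6 minus that in wild type, on floored log2 signals.

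XTH18 met both criteria, with a response difference of -2.09: its signal was 39.4 in dark and 44.7 in light in sfr6, and 158 in dark and 42.2 in light in wild type. TBL18, TBL23, TBL35 and EXPA20 also met both, with differences of 0.27, 0.35, 0.44 and 0.61, each under 2-fold. EXLA1 was 1.59-fold lower in sfr6 in dark and 1.37-fold higher in light, a difference of -1.12, although it rose in both genotypes. TBL45 was 1.37-fold higher in sfr6 in dark and 2.05-fold lower in light, a difference of 1.5. TBL26, TBL36, EXPA8, TBL28 and TBL25 had genotype differences of opposite direction as well, with response differences of 0.073, 0.32, 0.61, 0.63 and 0.64.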

How the results depend on the processing

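All 20 dark calls kept their direction. The 3 rises (EXLA1, XTH16, TBL45) and 9 of 17 falls (EXPA4, EXPA8, EXPA15, EXPA18, EXPB3, XTH32, GH9B7, GH9C2, TBL26) passed in every setting they entered but 1. That 1 was the floor without a filter, where 7625 probe sets hold the same value on all 4 arrays by construction. There 0 members and 0 probe sets passed either test in either direction, and the members' medians were 0. EXPA18, with no signal over 42.2, did not enter with the floor at the 60th percentile or with the filter for all 4 arrays. EXPA8, GH9C2 and TBL26 did not enter with that filter either. Of 14 falls that entered with the floor at the 60th percentile, 8 kept their call. Without filter and floor (pseudocount 16, added after seeing the data) 5 members rose and 16 fell, 3 probe sets were higher and 13 lower in sfr6, 0 members were past 2-fold between genotypes in light in either direction, 2 responses were 2-fold lower in sfr6, and the medians were -0.18 (average) and -0.13 (sfr6).

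With the floor at the 60th percentile 8 members and 1727 probe sets fell, 0 probe sets were higher and 3 lower in sfr6, 7 members in sfr6 and 6 in wild type were 2-fold lower in dark, 1 was higher and 1 lower in sfr6 in dark, 1 higher in light, 2 responses were lower, and the medians were -0.17 (average), -0.088 (sfr6) and -0.0897 (wild type). At the 20th percentile 5 members rose, 1 was higher in sfr6 (251 and 344 probe sets higher and lower), 4 in sfr6 and 8 in wild type were 2-fold higher in dark, 4 were higher in sfr6 in dark, 3 responses were higher, and the medians were -0.31 (average) and -0.16 (sfr6). A pseudocount of 1 gave 5 rises, 3 members (397 and 455 probe sets) for genotype, 4 in sfr6 and 7 in wild type 2-fold higher in dark, 5 higher in sfr6 in dark and 2 responses higher. One of 16 gave 5 rises, 4 members higher and 1 lower in sfr6 (591 and 596 probe sets), 0 past 2-fold in light and 2 responses lower. Limited to signals over the floor on every array, 10 members fell and 1 was higher in sfr6 (278 and 340 probe sets); 5 in sfr6 and 6 in wild type were 2-fold lower in dark, 1 was lower in sfr6 in dark, 0 higher in light and 2 responses lower, since fewer members entered.

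Genotype calls over all probe sets depended most on the setting: 803 higher and 213 lower with spike-in centring (2 members higher, 0 at 2-fold lower in light), 15 and 78 with quantile normalization (wild-type median -0.17), 6 and 26 with median centring, 0 and 2 without the trend and 138 and 204 with a robust prior. The response difference of XTH19 turned to 0.33 with the floor at the 20th percentile and to 0.25 with a pseudocount of 1; with the floor at the 60th percentile those of EXLA1 and EXLA2 shrank to -0.67 and -0.69. Where no cause is given here, the cause was not tested. No paired analysis was possible because each group has a single array and shares only replicate number 1.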

Other observations

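Some family probe sets lay outside the symbol rule. Those that match several genes (EXPA25 with EXPA23, GH9B15 with GH9B14, and GH9B10 with GH9B9) were under the floor on all 4 arrays, as was AT4G30380, which RefSeq also names EXLB2. AT2G31110, which RefSeq also names TBL40, has 2 probe sets with differing levels: 31.0 and 37.8 in sfr6 in dark, 23.7 and 33.1 in sfr6 in light, 44.2 and 70.9 in wild type in dark, and 25.9 and 51.1 in wild type in light. On both of them wild type in dark was the highest array and sfr6 in light the lowest.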
